A study of Homo sapiens with 14 samples.

Results

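The heat shock proteins of the cytosol were followed here through 10 genes that encode HSP70 proteins (HSPA1A, HSPA1B, HSPA8), their relative HSPH1, the HSP90 protein HSP90AA1, the small heat shock proteins HSPB1, HSPB8 and CRYAB, and the J-domain proteins DNAJB1 and DNAJB4. Members were found by name: all probes that the platform annotation assigns to these symbols were taken, which gave 13 probes for the 10 genes among 47323 distinct probes. The annotation gave a single symbol to only 16501 probes, so further probes of these genes may be unnamed. No measured value entered that choice of probes, but the 10 genes were chosen with earlier results of these data known.

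RNA was profiled on 14 Illumina BeadChip arrays in LNCaP, a human prostate cancer line that responds to androgen, and in its subline LNCaP-abl, which was kept without androgen for a long time. Each line was given 50 µM dilazep, a vasodilator that blocks adenosine uptake, for 48 h (3 arrays), H2O (2 arrays) or DMSO (2 arrays), in a study of the transcription factor GATA2 as a drug target in prostate cancer. LNCaP was grown in fetal bovine serum and LNCaP-abl, which is a single subline, in charcoal-stripped serum without phenol red, so line and medium cannot be told apart. For the controls, the treatment description mentions bufalin and not dilazep, and a difference between experiments cannot be told apart from a change with dilazep. The labels name neither separate cultures nor the vehicle that belongs to dilazep, so p-values measure the spread between these arrays, which may be technical.

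In cells under proteotoxic stress, the transcription factor HSF1 forms trimers that bind heat shock elements, inverted repeats of the unit GAA, and so induces chaperone genes. HSP70 proteins bind unfolded stretches of client proteins in cycles of ATP hydrolysis that J-domain proteins start and HSP110 proteins such as HSPH1 reset, while small heat shock proteins hold unfolded clients without ATP. HSP90 keeps steroid receptors, the androgen receptor of prostate cells among them, able to bind their ligand.

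Array median signals lay between 144.6 and 154.6, and 17925 to 19856 probes per array were detected, meaning that the detection p-value deposited beside the signal was under 0.05. Of 6 luminal prostate markers with a probe named by the annotation, 5 (KLK2, KRT8, KRT18, FOXA1 and HOXB13) were detected on all 14 arrays. KLK3 was detected on 7 of 7 LNCaP and 4 of 7 LNCaP-abl arrays. Of the markers of other cell types, PECAM1 and SYP were detected on 0 arrays, CHGA on 5, LYZ on 8, COL1A1 on 11 and VWF on 12. No basal marker had a probe named by the annotation, so basal markers could not be read. Their part in the results was not tested.

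Because HSF1 acts through the sequence in front of its target genes, the 160 bases before the start site are shown for 6 members, chosen because all hold a run of letters like a heat shock element and because the tested ones moved in different ways (HSPA1A, which was not tested, is shown beside its near copy HSPA1B). The sequences are those of RefSeq on GRCh38.p14, written 5′ to 3′ on the gene's own strand. Capitals mark matches to the motifs GAANNTTC and TTCNNGAA, which are pairs of inverted units and read the same on both strands. Overlapping matches of both motifs form the triple motifs GAANNTTCNNGAA or TTCNNGAANNTTC.
HSPA1A, chr6:31815383-31815542, plus strand: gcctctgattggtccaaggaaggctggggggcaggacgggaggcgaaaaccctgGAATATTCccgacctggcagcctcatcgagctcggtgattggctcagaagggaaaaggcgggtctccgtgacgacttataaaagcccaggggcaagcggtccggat
HSPA1B, chr6:31827578-31827737, plus strand: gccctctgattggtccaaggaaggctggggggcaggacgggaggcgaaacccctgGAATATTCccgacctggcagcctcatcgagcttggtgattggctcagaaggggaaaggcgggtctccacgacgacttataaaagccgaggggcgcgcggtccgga
HSPA8, chr11:123062137-123062296, minus strand: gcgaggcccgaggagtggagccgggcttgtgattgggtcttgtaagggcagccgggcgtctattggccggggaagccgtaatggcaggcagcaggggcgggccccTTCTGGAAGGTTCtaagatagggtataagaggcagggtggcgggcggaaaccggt
HSP90AA1, chr14:102087045-102087204, minus strand: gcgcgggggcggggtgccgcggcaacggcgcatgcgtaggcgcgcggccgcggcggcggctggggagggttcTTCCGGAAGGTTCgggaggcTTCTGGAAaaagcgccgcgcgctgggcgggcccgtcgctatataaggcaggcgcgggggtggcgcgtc
HSPB8, chr12:119178771-119178930, plus strand: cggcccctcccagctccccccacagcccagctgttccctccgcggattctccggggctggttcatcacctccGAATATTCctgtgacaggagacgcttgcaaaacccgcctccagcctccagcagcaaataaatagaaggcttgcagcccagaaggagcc
DNAJB1, chr19:14518398-14518557, minus strand: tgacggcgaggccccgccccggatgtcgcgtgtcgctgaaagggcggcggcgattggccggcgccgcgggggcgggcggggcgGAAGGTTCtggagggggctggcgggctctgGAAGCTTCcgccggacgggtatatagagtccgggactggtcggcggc

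The windows of HSPA1A and HSPA1B were 93.8% identical over 161 aligned positions, and both held GAATATTC, 106 to 99 and 105 to 98 bases before the start. HSPB8 held the same 8 letters 88 to 81 bases before its start. DNAJB4, not shown, also held a pair motif, 98 to 91 bases before 1 of its start sites. HSPB1, not shown, held a pair motif farther out, 182 to 175 bases before its start. HSPA8 and HSP90AA1 held the triple motif, at 55 to 43 and at 88 to 76 bases before the start. HSPA8 held it again at 230 to 218 bases, outside the stretch shown. The other start site of HSP90AA1, not shown, had no match in the 250 bases before it. Of the 10 members, 9 had an entry, some with several start sites, which gave 13 windows of 250 bases before the start. A pair motif was found in 8 of the 13 windows, 1 for each of 8 members, against 11.6% of 35116 such windows in the RefSeq table. The triple motif was found in 2 of the 13, against 0.441% of all windows. HSPH1 was the member with an entry and no match, which says only that these letters are not in its window. CRYAB was the member without an entry.

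Levels are log2 values of background-corrected, quantile-normalised signal. They compare arrays within 1 probe and not 1 probe with another. A probe was tested where it was detected on at least 2 arrays, which kept 24894 probes and 12 of the 13 member probes. A linear model of the 6 groups (limma) was fitted to these probes, and a probe was called where its Benjamini-Hochberg adjusted p over the 24894 probes was under 0.05. Changes with dilazep are the dilazep mean minus the control mean of the same line, in which H2O and DMSO count equally, each with its standard error (SE).

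In LNCaP, dilazep was followed by higher HSPB8, HSPA1B, DNAJB1 and, by 1 of its 2 probes, HSPA8. These were 4 of the 12 member probes called, all higher, with 0 lower. Over all probes tested, 32.0% were called, 15.7% higher and 16.3% lower, so the share of members called was near that of all probes. In a fit with 1 probe per gene, 3 of 9 members were called, against 43.9% of 11983 genes. The member median log2 change was 0.09, against 0.0052 over all probes. On 5 of the 12 member probes the dilazep and control arrays did not overlap, as on 38.0% of all probes.

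In LNCaP-abl, dilazep was followed by higher HSPB8, CRYAB and DNAJB4 and by lower HSPH1 and HSP90AA1. Of the 12 member probes, 7 were called, 4 higher and 3 lower, against 35.9% of all probes, 18.6% higher and 17.3% lower. DNAJB4 and HSP90AA1 each count here by both of their probes. In the fit with 1 probe per gene, 5 of 9 members were called, against 50.5% of 11983 genes. The member median log2 change was -0.0052, against 0.0245 over all probes. Dilazep and control arrays did not overlap on 8 of the 12 member probes and on 41.4% of all probes. With median scaling in place of quantile normalisation, the share of called probes that were higher fell from 51.9% to 35.5% over the whole table, while the members had 4 higher and 4 lower.

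HSPB8 was the only member called higher with dilazep in both lines. Of the 12 member probes, 8 differed in their response between the lines, 4 with a larger value in LNCaP-abl and 4 with a larger value in LNCaP, against 22.6% of all probes, 11.3% each way. In the fit with 1 probe per gene, 7 of 9 members differed, against 33.8% of 11983 genes. With DMSO alone as controls 4 had the larger value in LNCaP-abl and 1 in LNCaP, and with median scaling the split was 3 and 6. In LNCaP, HSPB8 on the controls and CRYAB on nearly all arrays were not above background, so their differences in response are those of the fitted values. The plots of levels by array and of changes by line show these values.

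**Figure D1:**
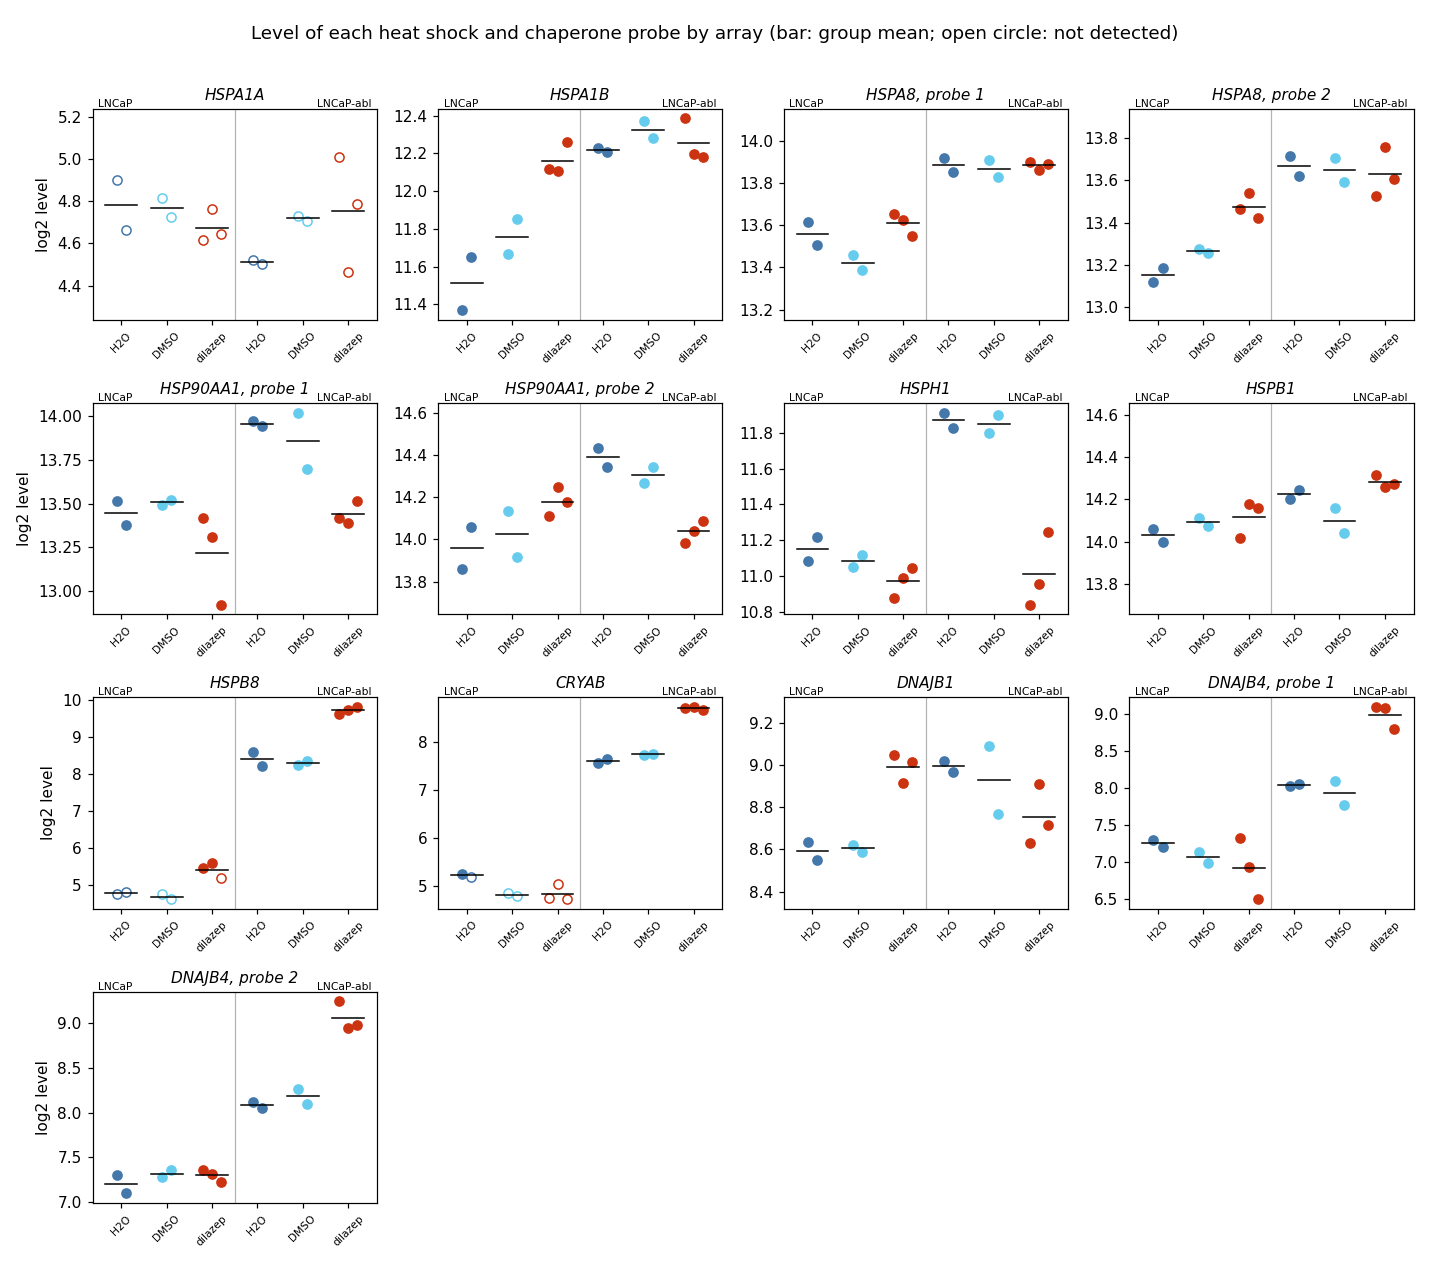
Log2 level (vertical axis) of each of the 13 member probes on the 14 arrays, by vehicle or dilazep on the horizontal axis, with LNCaP left and LNCaP-abl right of the grey line. Points are arrays, bars are group means and open circles are arrays on which the probe was not detected. HSPB8 and CRYAB lie near the bottom of their panels on all LNCaP arrays and highest on the LNCaP-abl dilazep arrays.

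**Figure D2:**
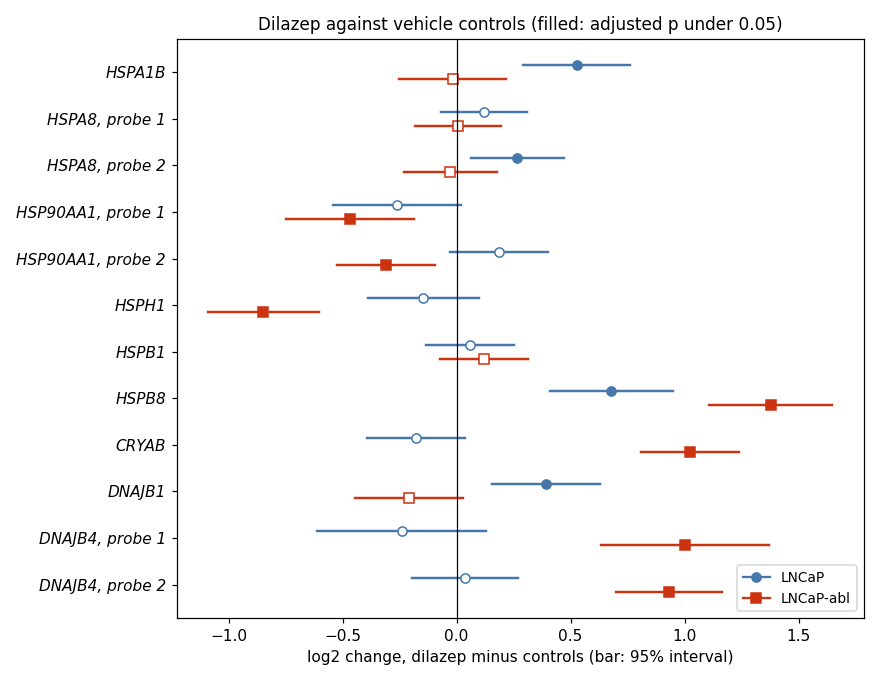
Log2 change with dilazep (horizontal axis) for the 12 tested member probes in LNCaP (circles) and LNCaP-abl (squares), with 95% intervals from limma. Filled symbols have an adjusted p under 0.05. HSPB8 lies right of 0 in both lines, and HSPH1 is lowest in LNCaP-abl at -0.85.

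The small heat shock proteins HSPB8 and CRYAB were the members with the widest range over the groups. HSPB8, a partner of the co-chaperone BAG3 in sending misfolded proteins to autophagy, was read by probe ILMN_1791280. In each list that follows, H2O replicates are 1 and 3 in LNCaP and 2 and 3 in LNCaP-abl, DMSO replicates 2 and 3 and then 1 and 3, and dilazep replicates 1, 2 and 4 and then 1, 2 and 3. In LNCaP, the HSPB8 log2 level was 4.76 and 4.80 with H2O, 4.74 and 4.61 with DMSO, and 5.44, 5.59 and 5.19 with dilazep. In LNCaP-abl it was 8.60 and 8.23 with H2O, 8.24 and 8.35 with DMSO, and 9.64, 9.74 and 9.82 with dilazep. All dilazep arrays lay above all control arrays of their line, and all LNCaP-abl arrays lay above all LNCaP arrays.

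HSPB8 was not detected on any LNCaP control array and was detected on 2 of the 3 LNCaP dilazep arrays, so its level in LNCaP controls is only a bound. For a bounded fold, each array of the dim group enters with its dimmest detected probe or with the probe itself, whichever is higher. The log2 change in LNCaP was 0.68 (SE 0.12, adjusted p = 0.00126), which is at least 1.11-fold. In LNCaP-abl the change was 1.38 (SE 0.12, adjusted p = 2.81e-06), or 2.60-fold. The fitted changes differed by 0.70 (SE 0.18, adjusted p = 0.0137), a call lost with median scaling, at 0.52 (adjusted p = 0.0942). Because the LNCaP controls are only a bound, the LNCaP rise may be larger than fitted, and which line responded more cannot be read from this probe. In the authors' processed values the changes were 0.15 in LNCaP and 0.99 in LNCaP-abl.

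CRYAB, or alpha B-crystallin, is a small heat shock protein of lens and muscle that is also made in many epithelial cells. Its probe, ILMN_1729216, had log2 levels in LNCaP of 5.25 and 5.20 with H2O, 4.85 and 4.79 with DMSO, and 4.75, 5.04 and 4.73 with dilazep. It was detected on 1 of these 7 arrays, an H2O array. In LNCaP-abl the levels were 7.57 and 7.65 with H2O, 7.74 and 7.76 with DMSO, and 8.72, 8.73 and 8.66 with dilazep, and the dilazep arrays lay above all controls. The log2 change in LNCaP-abl was 1.02 (SE 0.10, adjusted p = 5.04e-06), or 2.03-fold. In LNCaP the fitted change was -0.18 (SE 0.10, adjusted p = 0.199), between values that were nearly all not above background. With H2O alone as controls CRYAB was called lower in LNCaP, at -0.38 (adjusted p = 0.0303). The fitted changes differed by 1.20 (SE 0.14, adjusted p = 0.000101), where the LNCaP part is limited in the same way. In the authors' processed values the LNCaP-abl change was 0.58.

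HSPB1, or HSP27, an abundant small heat shock protein that is phosphorylated under stress, was called in neither line. Its probe ILMN_1674236 stayed within 13.998 to 14.18 on the 7 LNCaP arrays and within 14.04 to 14.31 on the 7 LNCaP-abl arrays, and the dilazep and control arrays overlapped in LNCaP. In LNCaP-abl all 3 dilazep arrays lay just above the 4 controls. The log2 changes were 0.06 (95% interval -0.14 to 0.25) in LNCaP and 0.12 (95% interval -0.07 to 0.31) in LNCaP-abl. HSPB1 was the member with the narrowest range of group means, 0.25, against 5.05 for HSPB8.

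The J-domain proteins DNAJB1 and DNAJB4, both partners that hand clients to HSP70, moved in different lines. DNAJB4 was read by 2 probes of the same transcript, ILMN_1813019 (probe 1) and ILMN_2222317 (probe 2). By probe 2, the LNCaP log2 levels were 7.30 and 7.09 with H2O, 7.28 and 7.35 with DMSO, and 7.35, 7.31 and 7.22 with dilazep, and the groups overlapped. In LNCaP-abl, probe 2 read 8.11 and 8.05 with H2O, 8.26 and 8.10 with DMSO, and 9.25, 8.95 and 8.98 with dilazep, all 3 above the controls. The log2 change in LNCaP-abl was 0.93 (SE 0.11, adjusted p = 2.19e-05) by probe 2 and 1.00 (SE 0.17, adjusted p = 0.000495) by probe 1. In LNCaP it was 0.04 (adjusted p = 0.833) by probe 2 and -0.24 (adjusted p = 0.326) by probe 1, whose dilazep arrays ranged from 6.50 on replicate 4 to 7.32 on replicate 1. The responses differed between the lines by 0.89 (SE 0.15, adjusted p = 0.00151) by probe 2 and by 1.24 (SE 0.24, adjusted p = 0.00324) by probe 1. In the authors' processed values, the LNCaP-abl changes were 0.60 and 0.62 by probes 2 and 1.

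DNAJB1, or HSP40, is a J-domain protein whose gene is a classic target of HSF1. Probe ILMN_1775304 had log2 levels in LNCaP of 8.64 and 8.55 with H2O, 8.62 and 8.59 with DMSO, and 9.05, 8.91 and 9.01 with dilazep, and all 3 dilazep arrays lay above the controls. In LNCaP-abl the levels were 9.02 and 8.97 with H2O, 9.09 and 8.77 with DMSO, and 8.63, 8.91 and 8.72 with dilazep, where 1 dilazep array overlapped the controls. The log2 change was 0.39 (SE 0.11, adjusted p = 0.0149), or 1.31-fold, in LNCaP. That call was lost without dilazep replicate 1 of LNCaP, at 0.37 (adjusted p = 0.0509). It was also lost with the replicate number as a block, at 0.33 (adjusted p = 0.12). In LNCaP-abl the change was -0.21 (SE 0.11, adjusted p = 0.161), which was called lower with median scaling, at -0.40 (adjusted p = 0.0258). The LNCaP-abl response lay below that of LNCaP by 0.60 (log2 difference -0.60, SE 0.15, adjusted p = 0.0147). This call was lost with DMSO alone as controls (adjusted p = 0.0613) and with the replicate block (adjusted p = 0.0591).

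Among the HSP70 genes, HSPA1B, a stress-inducible HSP70, rose in LNCaP. Its probe, ILMN_1660436, had log2 levels in LNCaP of 11.37 and 11.65 with H2O, 11.67 and 11.85 with DMSO, and 12.12, 12.11 and 12.26 with dilazep, with no overlap between dilazep and controls. In LNCaP-abl the levels were 12.23 and 12.21 with H2O, 12.37 and 12.28 with DMSO, and 12.39, 12.20 and 12.18 with dilazep, and the groups overlapped. Of the 3 LNCaP dilazep arrays, 1 lay within the range of the LNCaP-abl arrays and the others lay just below it. The log2 change was 0.53 (SE 0.11, adjusted p = 0.0025), or 1.44-fold, in LNCaP, and -0.02 (95% interval -0.25 to 0.22) in LNCaP-abl. The difference between the responses was -0.54 (SE 0.15, adjusted p = 0.0229). That call was lost without H2O replicate 1 or dilazep replicate 4 of LNCaP, or without dilazep replicate 2 or 3 of LNCaP-abl, at -0.51 to -0.47 (adjusted p = 0.05005 to 0.0569), and with DMSO alone as controls, at -0.47 (adjusted p = 0.104). It was also lost with the replicate number as a block, at -0.51 (adjusted p = 0.079).

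HSPA1A encodes nearly the same protein as HSPA1B and lies beside it on chromosome 6. Its probe, ILMN_1789074, was detected on 0 of 14 arrays, with signals of 117 to 143.8, and was not tested. The HSPA1B probe was detected on all 14 arrays, with signals of 2729 to 5839. Whether the HSPA1B probe also reads HSPA1A transcripts was not tested, so the rise in LNCaP is that of the HSPA1B probe and not of 1 of the genes alone.

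HSPA8, the constitutive HSP70 of the cytosol, was read by ILMN_1686367 (probe 1) and ILMN_2413084 (probe 2), which the annotation assigns to different transcripts. By probe 2, LNCaP log2 levels were 13.12 and 13.19 with H2O, 13.28 and 13.26 with DMSO, and 13.46, 13.54 and 13.42 with dilazep, and the dilazep arrays lay above the controls. By probe 1 the LNCaP dilazep arrays, at 13.55 to 13.65, overlapped the controls, at 13.39 to 13.61. The log2 change in LNCaP was 0.27 (SE 0.09, adjusted p = 0.048) by probe 2 and 0.12 (SE 0.09, adjusted p = 0.343) by probe 1. The call of probe 2 was lost on leaving out any 1 of 13 arrays, the exception being dilazep replicate 2 of LNCaP-abl, and in 17 of 24 alternatives in all (adjusted p = 0.0502 to 0.212). In LNCaP-abl the changes were 0.01 (95% interval -0.18 to 0.20) and -0.03 (95% interval -0.23 to 0.18), and dilazep and control arrays overlapped for both probes.

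HSPH1, the HSP110 protein that exchanges the nucleotide of HSP70, fell in LNCaP-abl. Probe ILMN_1712888 had log2 levels in LNCaP-abl of 11.91 and 11.83 with H2O, 11.80 and 11.90 with DMSO, and 10.84, 10.95 and 11.25 with dilazep, and all dilazep arrays lay below all controls. In LNCaP the levels were 11.08 and 11.22 with H2O, 11.05 and 11.12 with DMSO, and 10.88, 10.99 and 11.04 with dilazep, where the dilazep arrays lay just below the controls. The log2 change was -0.85 (SE 0.11, adjusted p = 6.86e-05), or 1.80-fold lower, in LNCaP-abl and -0.15 (SE 0.11, adjusted p = 0.371) in LNCaP. The responses differed by -0.70 (SE 0.16, adjusted p = 0.00775). The group means of HSPH1 under dilazep were 11.01 in LNCaP-abl and 10.97 in LNCaP.

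HSP90AA1, the stress-inducible HSP90 of the cytosol, fell in LNCaP-abl by both of its probes, ILMN_1691097 (probe 1) and ILMN_2373515 (probe 2). By probe 1 the LNCaP-abl log2 levels were 13.97 and 13.94 with H2O, 14.02 and 13.70 with DMSO, and 13.42, 13.39 and 13.52 with dilazep. Probe 2 read 14.43 and 14.35 with H2O, 14.26 and 14.34 with DMSO, and 13.99, 14.04 and 14.09 with dilazep. By both probes the dilazep arrays of LNCaP-abl lay below all of its controls. The log2 changes were -0.47 (SE 0.13, adjusted p = 0.0127) by probe 1 and -0.31 (SE 0.10, adjusted p = 0.0273) by probe 2, or 1.38-fold and 1.24-fold lower. The call of probe 1 was lost with DMSO alone as controls (adjusted p = 0.0593). That of probe 2 was also lost with DMSO alone (adjusted p = 0.116) and without H2O replicate 2, DMSO replicate 3 or dilazep replicate 1 or 2 of LNCaP-abl (adjusted p = 0.0664 to 0.0903).

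In LNCaP the probes of HSP90AA1, which the annotation assigns to different transcripts, did not move together. Probe 1 read 13.51 and 13.38 with H2O, 13.49 and 13.52 with DMSO, and 13.42, 13.31 and 12.92 with dilazep, while probe 2 read 13.86 and 14.06, then 14.14 and 13.92, then 14.11, 14.25 and 14.18. Dilazep and control arrays overlapped for both. The changes were -0.26 (adjusted p = 0.151) by probe 1 and 0.19 (adjusted p = 0.185) by probe 2. The difference between the responses was -0.49 (SE 0.14, adjusted p = 0.0243) by probe 2, and -0.21 (adjusted p = 0.474) by probe 1. The call of probe 2 was lost without H2O replicate 1, DMSO replicate 3 or dilazep replicate 2 of LNCaP, or H2O replicate 2 or dilazep replicate 1 or 2 of LNCaP-abl (adjusted p = 0.05001 to 0.0616), and with DMSO alone as controls (adjusted p = 0.119). It was also lost with the replicate number as a block (adjusted p = 0.0526). Over the 14 arrays, probes of the same gene had a Pearson correlation of 0.49 for HSP90AA1, 0.84 for HSPA8 and 0.96 for DNAJB4. These are descriptions, since the arrays share lines and treatments.

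Without dilazep, LNCaP-abl held more of nearly all members than LNCaP. Between the controls of the lines, 11 of the 12 member probes were called higher in LNCaP-abl and 0 lower, against 36.0% of all probes called either way and 18.3% called higher. The LNCaP-abl controls lay above all LNCaP controls on the same 11 probes, and control arrays of the lines did not overlap on 35.9% of all probes. In the fit with 1 probe per gene, 8 of 9 members were called, against 49% of 11983 genes. The member median log2 difference was 0.54, against 7e-04 over all probes. Other chaperone genes, listed further below, tilted the same way: of 53 tested, 23 were called higher in LNCaP-abl and 5 lower. Over all genes these shares were 22.8% and 22.2%. HSPB8 and CRYAB passed the detection filter mainly through LNCaP-abl arrays, so they had to differ between the lines, and their count adds no support. The controls used here are those against which dilazep was compared, so the line difference and the dilazep changes share arrays. In these RNA samples, fewer cells that make a transcript and less of it per cell cannot be told apart.

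**Figure D3:**
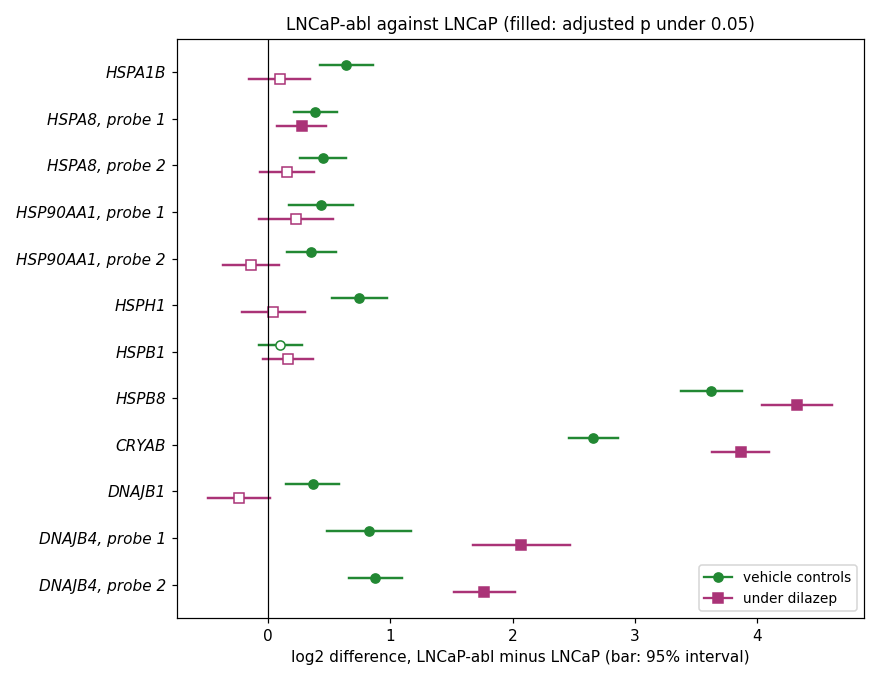
Log2 difference between the lines (horizontal axis, LNCaP-abl minus LNCaP) for the 12 tested member probes, among vehicle controls (circles) and among dilazep arrays (squares), with 95% intervals from limma. Filled symbols have an adjusted p under 0.05. HSPB8, CRYAB and DNAJB4 lie farther right under dilazep than among controls, and HSPA1B, HSPH1 and DNAJB1 lie nearer to 0 or below it.

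The largest differences between the controls were again those of HSPB8 and CRYAB. HSPB8 was at least 8.51-fold higher in LNCaP-abl (log2 difference 3.62, SE 0.11, adjusted p = 1.83e-10). The fitted difference of CRYAB was 2.66 (SE 0.09, adjusted p = 3.9e-10), but CRYAB was detected on 1 of the 4 LNCaP control arrays, so no fold is given. In the authors' processed values, the log2 differences were 1.19 for HSPB8 and 0.75 for CRYAB. HSPB1 differed by 0.10 (95% interval -0.08 to 0.28) and was the member not called. Among the J-domain genes, DNAJB4 differed by 0.83 and 0.87 by probes 1 and 2 (adjusted p = 0.00126 and 2.09e-05), and DNAJB1 by 0.36 (adjusted p = 0.0133). The DNAJB1 call was lost without DMSO replicate 1 of LNCaP-abl, at 0.28 (adjusted p = 0.0539), and with either vehicle alone.

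HSPA1B differed between the controls by 0.64 (SE 0.10, adjusted p = 0.000285), or 1.56-fold, and HSPH1 by 0.74 (SE 0.10, adjusted p = 0.000117), or 1.68-fold. HSPA8 differed by 0.39 and 0.45 (adjusted p = 0.00237 and 0.00146) and HSP90AA1 by 0.43 and 0.35 (adjusted p = 0.0131 and 0.00919). The call of HSP90AA1 probe 1 was lost without DMSO replicate 1 of LNCaP-abl, at 0.35 (adjusted p = 0.054). With DMSO alone, both HSP90AA1 probes lost the call (adjusted p = 0.167 and 0.154), and with H2O alone probe 1 of HSPA8 did (adjusted p = 0.0551). Chaperones of the HSP70 cycle and of HSP90 differed between the lines by 1.28-fold to 1.68-fold by these probes.

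Under dilazep, the lines differed in fewer members. Of the 12 probes, 5 were called higher in LNCaP-abl and 0 lower, against 41.5% of all probes called either way and 20.6% called higher. The share of members called was thus near that of all probes. The 5 probes were HSPB8 (log2 difference 4.32, SE 0.13), CRYAB (3.86, SE 0.11), both probes of DNAJB4 (2.07, SE 0.18, and 1.77, SE 0.11) and probe 1 of HSPA8 (0.27, SE 0.09, adjusted p = 0.0323). HSPB8 and CRYAB passed the detection filter mainly through LNCaP-abl arrays, so their count adds no support here either. CRYAB was at least 10.4-fold higher, because it was detected on 0 of the 3 LNCaP dilazep arrays. HSPA1B then differed by 0.09 (95% interval -0.16 to 0.34), HSPH1 by 0.04 (95% interval -0.22 to 0.30) and DNAJB1 by -0.24 (95% interval -0.49 to 0.01), and none of these was called. The median over all probes was 0.0073 here and -0.11 with median scaling.

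In order of mean level, the groups differed by member. For HSPB8 the order was LNCaP-abl with dilazep, then LNCaP-abl with H2O and DMSO, which overlapped, then LNCaP with dilazep, above the LNCaP controls, which were not above background and have no order. HSPA1B had its 3 LNCaP-abl groups and the LNCaP dilazep group in a chain of overlapping neighbours, above the LNCaP DMSO and H2O groups, which did not overlap with it or each other. For HSPH1 the LNCaP-abl H2O and DMSO groups stood above the other 4 groups, whose neighbours in the order overlapped.

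Averaged over the lines, the vehicles gave no call. DMSO against H2O over both lines was called on 0 of the 12 member probes and on 0 of 24894 probes (0% in all), with 0 member probes and 1117 probes at an unadjusted p under 0.05 in limma. The other scalings and filters also called 0 member probes. This contrast averages the lines, so opposite shifts can cancel, and the vehicles were not tested within a line. For CRYAB, DMSO minus H2O was -0.41 in LNCaP, near background, and 0.14 in LNCaP-abl. For HSPA1B it was 0.25 in LNCaP and 0.11 in LNCaP-abl. The vehicle arrays did not overlap in these cases.

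HSPB8, CRYAB and DNAJB4 varied alike over the 14 arrays, as a description of arrays that share lines and treatments. The Pearson correlation of HSPB8 was 0.98 with CRYAB, 0.92 and 0.96 with the probes of DNAJB4, and 0.93 and 0.83 with those of HSPA8. It was 0.75 with HSPB1, 0.72 with HSPA1B, 0.42 and 0.32 with the probes of HSP90AA1, 0.36 with HSPH1 and 0.26 with DNAJB1. The higher HSPA8 value with HSPB8 thus lay between those of DNAJB4. CRYAB had correlations of 0.94 and 0.95 with the probes of DNAJB4, against 0.91 and 0.76 with those of HSPA8. Between the probes of DNAJB4 and HSPA8 the correlations were 0.64 to 0.83. HSPB8, CRYAB and DNAJB4 were thus closer to each other than to HSPA8, except for the higher HSPA8 value with HSPB8. HSPH1 correlated best with HSP90AA1, at 0.81 and 0.75 for its probes. HSPB8 had the widest range of group means, and the 5 named genes whose levels were most like it over the 14 arrays were LACTB2, PCSK1N, KCNG1, MBNL2 and GSTM1, with Pearson correlations of 0.99 for each.

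The wider chaperone system was counted in 9 lists drawn up from textbook knowledge, each gene by its tested probe with the highest mean level. Of 66 listed genes, 53 were tested. In LNCaP, 5 were called higher and 15 lower with dilazep, with a median log2 change of -0.0033 against 0.04 over all 11983 genes, of which 39.6% were called and 17.8% were called lower. In LNCaP-abl, 5 were called higher and 33 lower, with a median of -0.42 against 0.04, while 46.5% of all genes were called and 21.5% were called lower. With median scaling the lists had 2 higher and 36 lower in LNCaP-abl and 5 higher and 10 lower in LNCaP. That scaling also moved the median of all genes to -0.08 in LNCaP-abl and 0.09 in LNCaP, against list medians of -0.58 and 0.03. The responses of the lines differed for 17 genes, a share near the 28.5% of all genes. Of the 17, 16 had the lower value in LNCaP-abl, while 15.1% of all genes were called that way. For this difference, median scaling moved the median of all genes to -0.22.

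**Figure D4:**
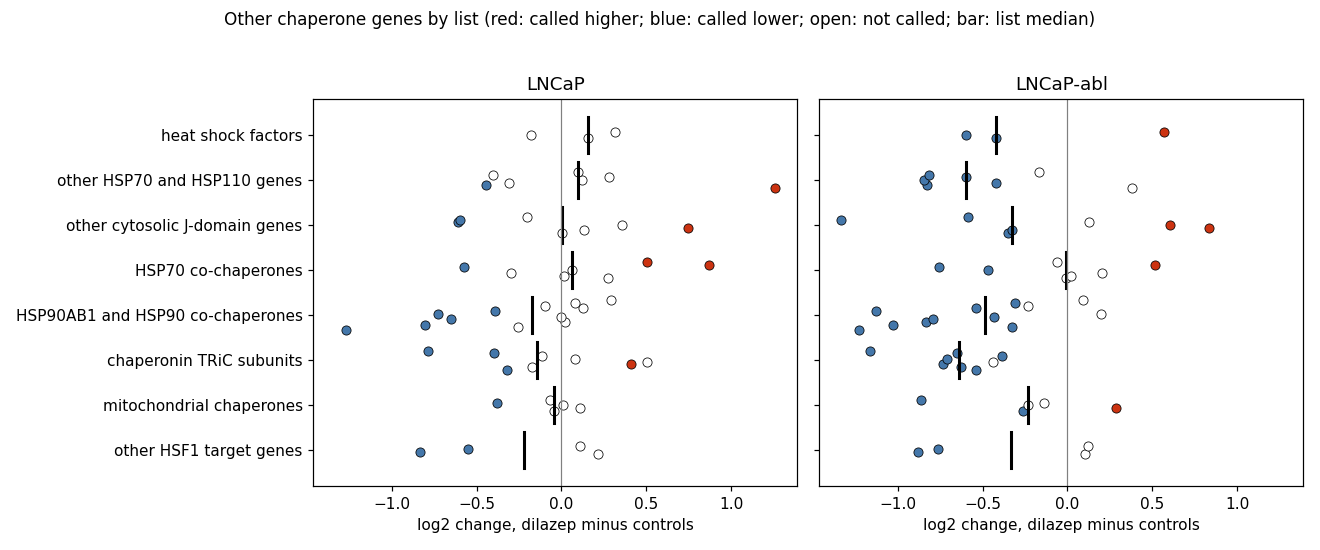
Log2 change with dilazep (horizontal axis) of 53 other chaperone genes by list (vertical axis) in LNCaP (left) and LNCaP-abl (right). Points are genes, red where called higher, blue where called lower and open where not called, and black bars are list medians. In LNCaP-abl, 33 points are blue and 5 red, and in LNCaP 15 are blue and 5 red.

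Of the heat shock factors, 0 of 3 tested genes were called in LNCaP by their brightest probe. HSF1, the master factor of the response, had a log2 change of -0.18 in LNCaP and fell by 0.60 in LNCaP-abl (adjusted p = 0.0142). HSF4, a factor best known from the lens, rose in LNCaP-abl by 0.57 (adjusted p = 0.0326), a call lost with median scaling, which called 0 of the 3 higher. The other probe of HSF4 was called higher in both lines, by 0.60 in LNCaP and 0.47 in LNCaP-abl (adjusted p = 0.016 and 0.0453). The HSF1-binding protein gene HSBP1 fell in LNCaP-abl by 0.42 (adjusted p = 0.00477), and its change of 0.16 in LNCaP was not called. HSF2 was not tested.

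The other HSP70 and HSP110 genes had 1 higher and 1 lower call in LNCaP and 0 higher and 5 lower in LNCaP-abl, of 7 tested. In LNCaP-abl HSPA2 changed by -0.84, HSPA4 by -0.60, HSPA4L by -0.82 and HSPA14 by -0.83 (adjusted p at most 0.00623). HSPA4, like HSPH1, is an HSP110 protein, and its response was lower in LNCaP-abl than in LNCaP by 0.87 (log2 difference -0.87, adjusted p = 0.00341). HSPA12A, a distant HSP70 relative, rose in LNCaP by 1.26 by its brightest probe, while its other probe changed by -0.03. HSPA6, a strictly stress-induced HSP70, changed by 0.10 in LNCaP and -0.17 in LNCaP-abl and was called in neither.

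Of 7 other cytosolic J-domain genes, 1 was higher and 2 lower in LNCaP, and 2 were higher and 4 lower in LNCaP-abl. DNAJB2, a J-domain protein abundant in neurons, rose by 0.75 in LNCaP and 0.83 in LNCaP-abl (adjusted p = 0.000293 and 6.71e-05), although its other probe had a change of -0.02 in LNCaP. DNAJC2, which works at the ribosome, fell by 0.60 in LNCaP and by 1.33 in LNCaP-abl (adjusted p = 0.000924 and 7.91e-07). DNAJA1 had a change of 0.01 in LNCaP and fell by 0.35 in LNCaP-abl (adjusted p = 0.0174). The probes of DNAJB6 disagreed in LNCaP, at -0.61 by the brightest and 1.07 by the other (adjusted p = 0.0198 and 1.1e-05).

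The HSP70 co-chaperones had 2 higher and 1 lower in LNCaP and 1 higher and 2 lower in LNCaP-abl, of 7 tested. BAG3, the partner of HSPB8, had a log2 change of 0.01 in LNCaP (adjusted p = 0.951) and 0.02 in LNCaP-abl (adjusted p = 0.906). ST13, or HIP, which holds HSP70 in its client-bound state, rose by 0.87 and 0.52 (adjusted p = 0.000288 and 0.0064). The ubiquitin ligase STUB1, or CHIP, rose by 0.51 in LNCaP (adjusted p = 0.00819). HSPBP1, a nucleotide exchange factor, fell by 0.57 and 0.76 (adjusted p = 0.00538 and 0.000601), with a value of -0.24 for its other probe in LNCaP.

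HSP90AB1 and the HSP90 co-chaperones had 0 higher and 5 lower calls in LNCaP and 0 higher and 9 lower in LNCaP-abl, of 12 tested, with median changes of -0.18 and -0.49. HSP90AB1, the constitutive HSP90, had a change of -0.0033 in LNCaP and fell by 0.44 in LNCaP-abl (adjusted p = 0.0107), beside the fall of HSP90AA1 there. The p23 gene PTGES3 fell by 0.39 and 1.13 (adjusted p = 0.0172 and 6.3e-06), and FKBP4, a steroid receptor partner, had a change of 0.02 and then fell by 0.83 (adjusted p = 1.87e-05). STIP1, which links HSP70 to HSP90, had a change of 0.13 in LNCaP and fell by 0.54 in LNCaP-abl (adjusted p = 0.00362). CACYBP fell by 1.27 and 1.23 by its brightest probe, and its other probe had a value of -0.10 in LNCaP-abl. CHORDC1 fell by 0.80 and 1.03, with a value of 0.22 for its other probe in LNCaP.

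The 8 subunits of the chaperonin TRiC, which folds actin and tubulin, were all tested, with 1 higher and 3 lower in LNCaP and 0 higher and 7 lower in LNCaP-abl. TCP1 fell by 0.79 and 1.16 (adjusted p = 0.000189 and 3.75e-06). CCT4 rose by 0.41 in LNCaP (adjusted p = 0.0376) and fell by 0.73 in LNCaP-abl (adjusted p = 0.00102), a difference between the lines of -1.14 (adjusted p = 0.00152). CCT5 had changes of 0.51 and -0.44 and was called in neither line, though its responses differed by -0.94 (adjusted p = 0.0302).

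Of 5 mitochondrial chaperones, 1 was lower in LNCaP, and 1 was higher and 2 lower in LNCaP-abl, where median scaling gave 0 higher and 4 lower. The gene called lower in LNCaP was HSPE1, with a change of -0.38 (adjusted p = 0.0136). The other probe of HSPE1 changed by -0.54 in LNCaP (adjusted p = 0.0552) and by -0.65 in LNCaP-abl (adjusted p = 0.0222). HSPA9 was the gene called higher in LNCaP-abl, by 0.28 (adjusted p = 0.03175). TRAP1, the HSP90 of mitochondria, had a change of -0.07 in LNCaP and fell by 0.86 in LNCaP-abl (adjusted p = 2.52e-05). The probes of HSPD1, or HSP60, disagreed: the brightest changed by 0.01 and -0.23, neither called, while of the 3 others 2 were called lower in both lines, the larger change being -1.87 and -1.22 (adjusted p = 0.000107 and 0.00133). Of 4 other genes known as HSF1 targets, IER5 fell by 0.84 and 0.88 and SERPINH1, the collagen chaperone HSP47, by 0.55 and 0.77, while UBB and DEDD2 were not called in either line. Of the other small heat shock proteins on the lists, none was tested.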

How the data were processed

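The series measured RNA on 14 single-colour Illumina BeadChips. The authors deposited 1 signal intensity and 1 detection p-value for each probe on each array, per the file headers, and no background subtraction or scaling was visible in the values. A second deposited table holds the authors' processed log2 values of 22912 probes, for which the submitters' processing notes name lumi. The annotation gave 16501 of them a single symbol, 5 several, and left 6406 without one. The main table lists 47422 rows, of which 99 repeat a probe with identical values. Columns were matched to samples by title, since the header's sample numbers differ from the labels.

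Signals were background corrected with normexp from the detection p-values, quantile normalised and log2 transformed (neqc, offset 16, limma 3.58.1, R 4.3.3). Probes detected at p under 0.05 on at least 2 arrays were fitted with lmFit and eBayes over 6 group means, two-sided. Adjusted p-values come from this limma fit or, where a sentence names another setting, from the same fit under that setting. The fit was tested on simulated data. Groups were taken from the labels. Alternatives changed the scaling, background, offset, filter, probes per gene, variance moderation, vehicle and replicate block, used the processed values, or left out each array. Same-numbered arrays of different groups showed no shared deviation (8 pairs, correlations -0.16 to 0.05), and numbers were not treated as pairs. In groups of 2 arrays the deviations from the group mean mirror each other, so this check is weak and cannot exclude shared batches. The number of arrays limits the precision. Figures used matplotlib 3.10.9 (Python 3.11.15).

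The members and the lists of other chaperones and markers were chosen with earlier results of these data known. Each member probe is reported. Other chaperones are counted by list, and the 2 with the largest called change per list and line are named along with well-known members.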

Additional observations from a re-analysis of the deposited data

Results flagged for a closer look

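The lines differed in their response past the threshold for 8 of the 12 member probes tested, against 22.6% of all probes. This was read from the difference term of the limma fit with Benjamini-Hochberg adjustment over all 24894 probes. In the fit with 1 probe per gene, 7 of 9 members differed, against 33.8% of genes. Each value is the log2 change with dilazep in LNCaP-abl minus that in LNCaP. The response was smaller in LNCaP-abl for HSPA1B (-0.54, adjusted p = 0.0229), which rose by 0.53 in LNCaP and had a change of -0.02 in LNCaP-abl. DNAJB1 (-0.60, adjusted p = 0.0147) had the same order of changes, 0.39 in LNCaP and -0.21 in LNCaP-abl. HSPH1 (-0.70, adjusted p = 0.00775) and probe 2 of HSP90AA1 (-0.49, adjusted p = 0.0243) were called lower in LNCaP-abl and not called in LNCaP. The difference calls of HSPA1B, DNAJB1 and probe 2 of HSP90AA1 were each lost with DMSO alone as controls. They were also lost with the replicate number as a block, while that of HSPH1 was kept.

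The fitted change was larger in LNCaP-abl for the other 4 probes. For HSPB8 (0.70, adjusted p = 0.0137) the fitted changes were 0.68 and 1.38, and the call was lost with median scaling (adjusted p = 0.0942). CRYAB (1.20, adjusted p = 0.000101) and DNAJB4 by probe 1 (1.24, adjusted p = 0.00324) and by probe 2 (0.89, adjusted p = 0.00151) rose in LNCaP-abl and were not called in LNCaP. In LNCaP, HSPB8 was not detected on the controls and CRYAB on 1 of 7 arrays, so the changes there are not exact, and a larger HSPB8 rise in LNCaP cannot be told apart from the fitted one.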

How the results depend on the processing

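Over 24 or 25 alternatives per probe and comparison (dilazep in each line, the difference between the lines' responses, and the lines' controls), 30 of the 48 results kept their side of the threshold throughout. Of the single outcomes, 1129 stayed as reported, 49 lost a call, 10 gained one and 0 turned a called direction. The number of member probes called in LNCaP with dilazep fell from 4 to 2 with the replicate number as a block, and the number whose responses differed fell from 8 to 5 with that block and to 5 with DMSO alone as controls, 4 higher and 1 lower in LNCaP-abl under both. The block left 7, 11, 4 and 0 calls in the other comparisons. Whether its numbers pair the arrays was not settled, and the cause of the changes was not tested. Leaving out each array gave 2 to 4 calls in LNCaP, with 2 without dilazep replicate 1, 6 to 7 in LNCaP-abl, 6 to 8 for the difference, 9 to 11 between controls, 4 to 5 under dilazep and 0 for the vehicles.

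Median scaling moved the median of all probes to -0.13 for the difference between responses, where 26% of calls were higher against 50.2%, and to -0.11 between the lines under dilazep, where 32.5% were higher against 49.7%. Over all probes, DMSO alone as controls lowered the calls from 5619 to 3531 for the difference and from 8970 to 5682 between the controls. In the authors' processed values, which flatten at low signals, the differences between the controls were 1.19 for HSPB8, 0.75 for CRYAB and 0.38 and 0.42 for DNAJB4, and the changes in LNCaP-abl were 0.58 for CRYAB and 0.62 and 0.60 for DNAJB4, with the calls kept. The HSPB8 change in LNCaP was 0.15 (adjusted p = 0.0485). The differences between the responses were 0.62 for CRYAB and 0.70 and 0.58 for DNAJB4. HSPB8 and CRYAB in LNCaP were limited by signal over background.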
